A study of Mus musculus with 9 samples.

Results

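Macrophages sorted from lungs bearing a Lewis lung carcinoma were compared with alveolar macrophages (AMs) of control lungs, and the genes that were on in one population and off in the other are described here. The comparison used 6 of the 9 samples of the series, 3 of the group Tumor-macrophage and 3 of the group Ctrl-AM. A gene was called on/off when its mean was at least 20 FPKM in one group and under 1 FPKM in the other, FPKM being the reads of a gene scaled to transcript length and to the mapped reads of the sample. Any further normalisation between samples is not given in the sources used here. It also had to reach 1 FPKM in at least 3 of the 6 samples, as did all genes tested. Of 10495 genes tested, 95 met the rule, 56 on in Tumor-macrophage and 39 on in Ctrl-AM. Because the values of both groups chose these genes, they are described with no test.

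All mice were female C57BL/6 mice at postnatal week 10. The tumor-bearing mice had received LLC cells (a mouse Lewis lung carcinoma line) carrying the fluorescent protein tdTomato in the left lung, and the control mice had received PBS instead. Both populations were sorted from enzyme-digested, unperfused lungs out of the CD45+ autofluorescent cells. Ctrl-AM were Siglec-F+ F4/80+ cells. Tumor-macrophage, the tumor-associated macrophages (TAMs), were Siglec-F- F4/80+ cells of the tumor-bearing lungs, which the study describes as CD11b+. The last group of 3 samples, Tumor-AM, held the Siglec-F+ F4/80+ cells of tumor-bearing lungs. It took no part in the choice of genes and its values are given beside the others. No macrophages other than AMs were sampled from control lungs, so the kind of macrophage and the presence of the tumor cannot be told apart in this comparison. These are bulk samples, in which fewer cells of a type and less RNA per cell cannot be told apart either.

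AMs settle in the airspaces around birth, renew themselves locally and clear surfactant, the lipid film of the alveoli. Their identity depends on the growth factor GM-CSF and on the nuclear receptor PPARγ, which drives genes of lipid handling. Macrophages of tumors derive largely from blood monocytes, and monocyte-derived and interstitial macrophages are known for the transcription factor c-Maf, for complement C1q, for MHC class II and for the fractalkine receptor CX3CR1.

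The labels were checked against the markers the study uses for the 2 populations. Siglecf, which encodes the sort marker Siglec-F, measured 202, 209 and 193 FPKM in Ctrl-AM but 0.663, 0.456 and 0.835 FPKM in Tumor-macrophage. The AM markers Pparg and Marco were at 184, 206 and 216 and at 275, 192 and 194 FPKM in Ctrl-AM. In Tumor-macrophage, Pparg was at 12.8, 12.1 and 10.5 and Marco at 5.76, 9.65 and 4.42 FPKM. The groups were far apart for these 3 genes and closer for the other AM markers, Mrc1 with means of 134 FPKM in Ctrl-AM and 70.0 FPKM in Tumor-macrophage and Siglec1 with 35.7 and 17.0 FPKM. All 5 AM markers were lower and all 4 TAM markers higher in Tumor-macrophage. The TAM markers Ccr2, Tgfb3 and Ly6c2 averaged 38.0, 10.9 and 55.7 FPKM in Tumor-macrophage and 1.59, 0.209 and 5.25 FPKM in Ctrl-AM. Adgre1, which encodes F4/80, was at 409, 321 and 442 FPKM in Tumor-macrophage and 131, 138 and 145 FPKM in Ctrl-AM, and Cd68, a general macrophage gene, was at 1738, 1683 and 1859 and 1185, 1258 and 1205 FPKM. Itgam, which encodes CD11b, averaged 147 against 1.17 FPKM. The sort marker Siglecf had to differ by the gate, so its difference is no finding. The study describes AMs as CD11b- and TAMs as CD11b+, but a CD11b gate in this sort is not stated. The Itgam difference goes with that description and is not counted as a finding either.

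The files hold no counts. The steps between low values put the depth at 10200000 to 11500000 reads in the Tumor-macrophage samples and 11300000 to 12900000 in Ctrl-AM. On log2(FPKM + 1), 54.8% of the genes tested differed between the 2 groups at an adjusted p under 0.05 (limma with Benjamini-Hochberg adjustment), 27.9% higher and 26.9% lower in Tumor-macrophage. With values rescaled to a fixed total (TPM), which shifted the median of all genes by -0.22 on the log2 scale, 2172 genes were higher and 4430 lower, against 2927 and 2826 as deposited. Quantile normalization gave 2596 and 3350, with a median of -0.08. Most genes were thus called and 62.8% of the genes had no overlap between the groups, so that a call alone says little about a single gene, and the on/off genes are the far end of a broad difference. A difference of 16-fold or more, on this scale, was found for 137 genes in favour of Tumor-macrophage and 76 in favour of Ctrl-AM.

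**Figure D1:**
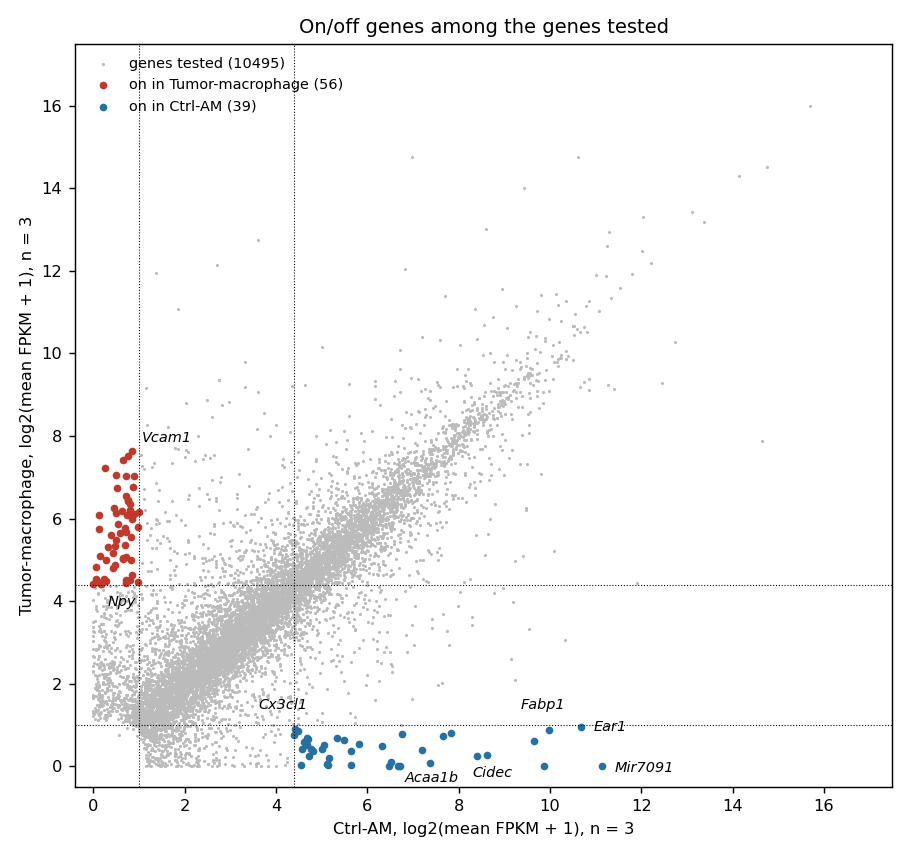
Mean level of the 10495 genes tested in Ctrl-AM (x axis) and Tumor-macrophage (y axis), as log2(mean FPKM + 1) of 3 samples each, with dotted lines at 1 and 20 FPKM. The 56 red and 39 blue points are the on/off genes, which lie in the upper left and lower right corners cut by these lines, away from the diagonal band of most genes.

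The on/off genes took a small share of the summed FPKM. The 56 genes on in Tumor-macrophage made up 0.426% to 0.466% of the summed FPKM of the Tumor-macrophage samples and 0.0037% to 0.005% in Ctrl-AM. In the 3 Tumor-macrophage samples, 50 to 52 of the 56 genes reached 20 FPKM, none did in a Ctrl-AM sample, and 44 to 52 were under 1 FPKM there. The 39 genes on in Ctrl-AM reached 20 FPKM in 37 to 39 cases per Ctrl-AM sample and in none of the Tumor-macrophage samples, where 36 to 39 were under 1 FPKM and 9 to 15 were listed at 0. The small shares in the off group and the lack of any gene at 20 FPKM there follow from the rule. With both limits required of every single sample, 27 genes were on in Tumor-macrophage and 32 on in Ctrl-AM.

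**Figure D2:**
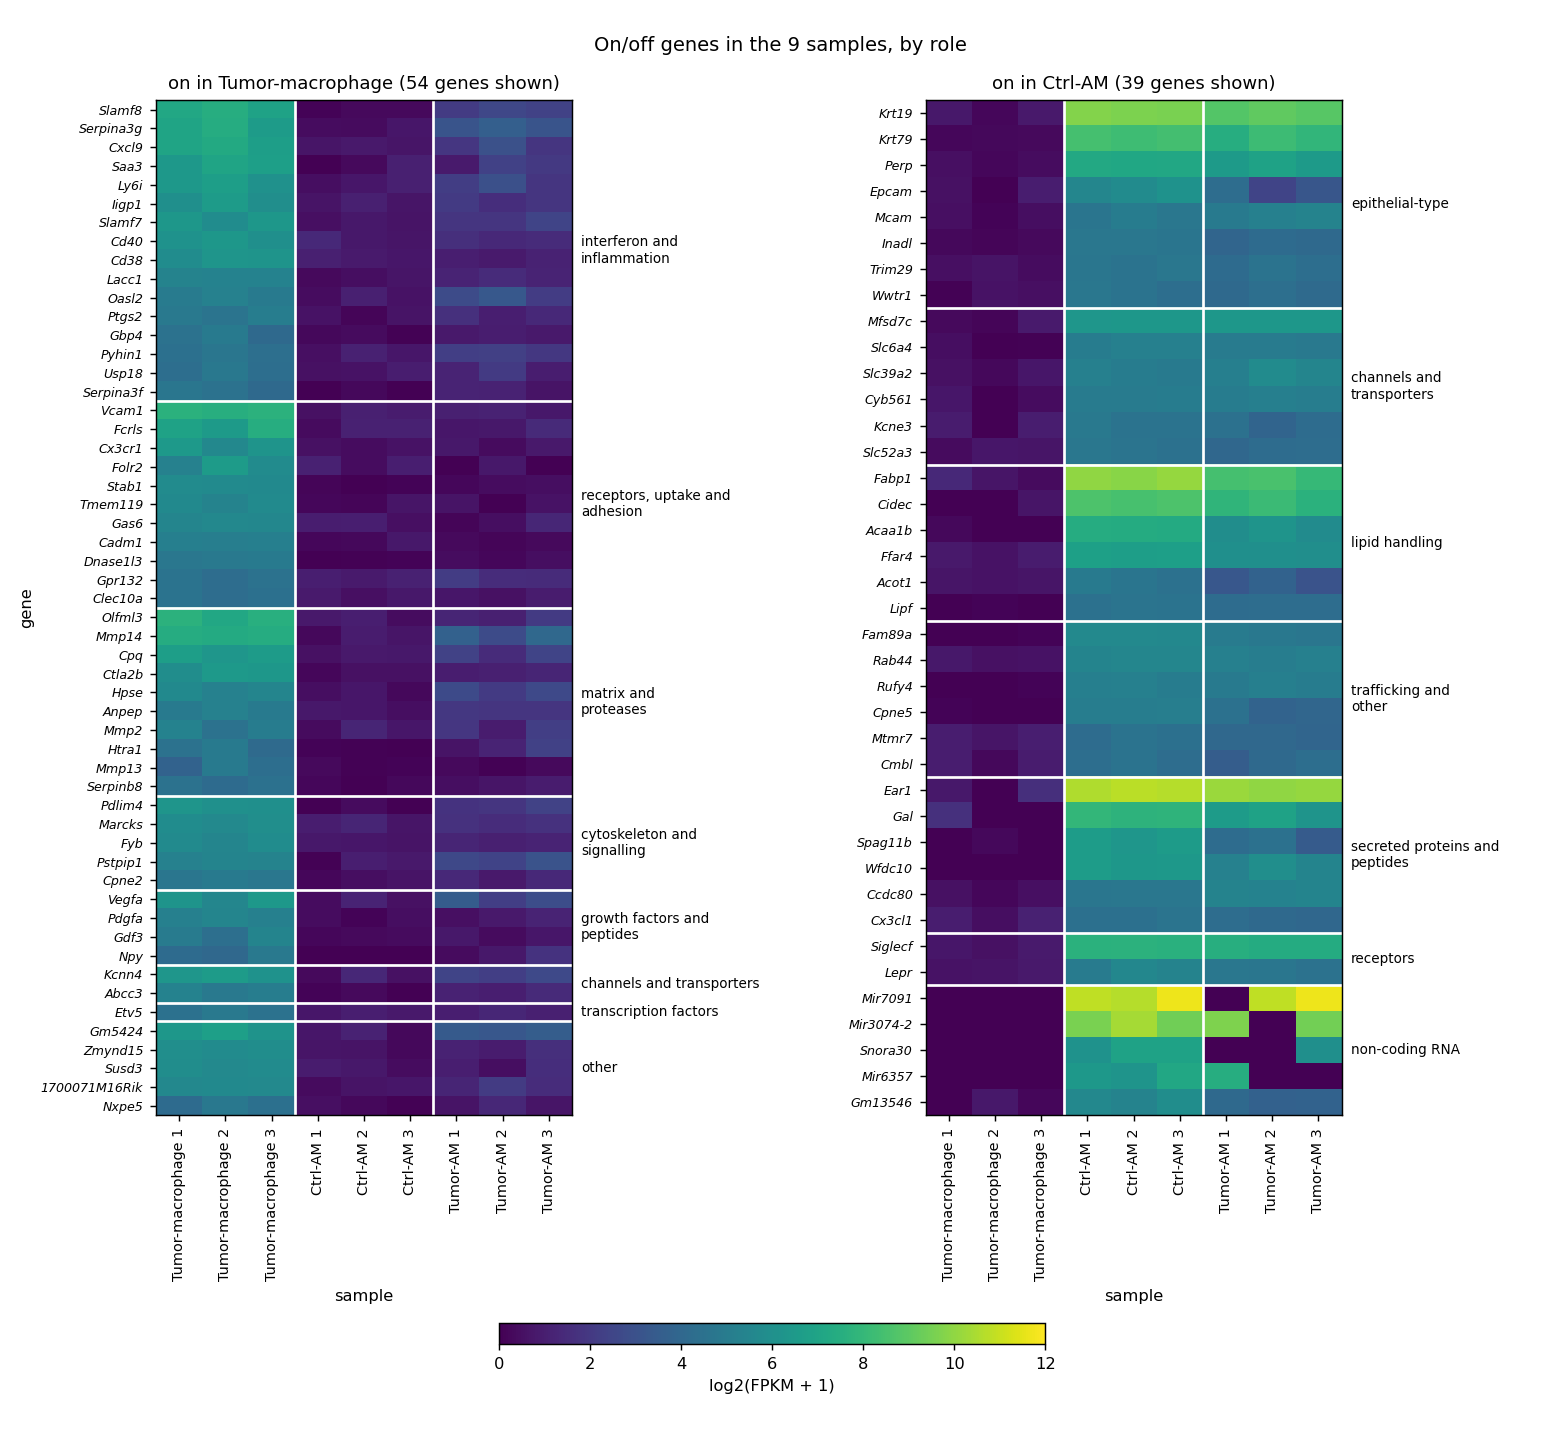
On/off genes (rows, grouped by role, 54 and 39 shown) in each of the 9 samples (columns), coloured by log2(FPKM + 1) from 0 to 12. The genes of the left panel are dark in Ctrl-AM and mostly dark in Tumor-AM, whereas those of the right panel are bright in both AM groups and dark in Tumor-macrophage, apart from 4 short RNAs with gaps in Tumor-AM.

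The largest group on in Tumor-macrophage held 16 genes tied to interferon and inflammation, with means of 21.2 to 148.8 FPKM and a median of 69.5 FPKM, against a median of 0.591 FPKM in Ctrl-AM. Slamf8, a surface receptor of the SLAM family found on myeloid cells, was at 147, 178 and 121 FPKM in Tumor-macrophage and 0.0889, 0.234 and 0.234 FPKM in Ctrl-AM, 802-fold apart in the means. Its relative Slamf7, a self-binding receptor of macrophages and NK cells, was at 79.5, 55.5 and 79.8 against 0.389, 0.719 and 0.549 FPKM. Cxcl9, an interferon-γ-induced chemokine that draws T cells through CXCR3, was at 126, 157 and 104 against 0.604, 0.741 and 0.609 FPKM. The lowest Tumor-macrophage sample of each of these 3 genes exceeded the highest Ctrl-AM sample by a wide margin, in the values that chose them.

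Saa3, an acute-phase protein of the serum amyloid A family that macrophages make, was at 82.6, 126 and 107 FPKM in Tumor-macrophage and 0, 0.221 and 1.10 FPKM in Ctrl-AM. Serpina3g and its neighbour Serpina3f, protease inhibitors of the α1-antichymotrypsin family, were at 127, 170.5 and 95.4 and at 24.9, 22.4 and 16.4 FPKM in Tumor-macrophage, where both were lowest in the same sample. Their Ctrl-AM values were 0.315, 0.276 and 0.670 FPKM for Serpina3g and 0, 0.195 and 0 FPKM for Serpina3f. Ly6i, a GPI-anchored surface protein of the Ly6 family, was at 84.3, 106 and 65.3 against 0.364, 0.639 and 1.06 FPKM.

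Several of the 16 are known targets of interferon. Iigp1, an immunity-related GTPase that attacks vacuoles of intracellular pathogens, was at 62.3, 96.6 and 60.5 FPKM in Tumor-macrophage and 0.536, 1.10 and 0.627 FPKM in Ctrl-AM. Matched by symbol, the fixed list of interferon-stimulated genes had 2 members among the 16. Oasl2, an oligoadenylate synthetase-like protein, was at 31.2, 37.1 and 29.1 against 0.306, 1.10 and 0.487 FPKM. Usp18, which removes the ubiquitin-like ISG15 and dampens interferon signalling, was at 19.0, 26.9 and 19.5 against 0.469, 0.502 and 0.959 FPKM. Gbp4, a guanylate-binding protein, averaged 22.2 ± 6.36 FPKM (SD, n = 3) in Tumor-macrophage and 0.170 ± 0.110 FPKM in Ctrl-AM. Pyhin1, listed under the name Ifi209 in the annotation and belonging to the interferon-inducible DNA-sensor family, averaged 21.9 ± 3.02 and 0.733 ± 0.375 FPKM. The fixed list also holds it, but under the name Ifi209, so it was not matched there. Its level is uncertain, since 24.3% of its read-length windows also occur in its relative Ifi214. In 12 of these 16 genes, the second Tumor-macrophage sample was the highest of the 3.

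Cd40, the receptor through which T cells activate antigen-presenting cells, was at 69.0, 81.5 and 62.1 FPKM in Tumor-macrophage and 1.63, 0.707 and 0.617 FPKM in Ctrl-AM, with a mean just under the limit. Cd38, an enzyme that consumes NAD, was at 56.7, 75.4 and 72.0 against 1.05, 0.845 and 0.666 FPKM. Ptgs2, which encodes the prostaglandin-forming cyclooxygenase COX-2, was at 28.2, 23.3 and 33.5 against 0.496, 0.127 and 0.562 FPKM. Lacc1, an enzyme of immunometabolism in macrophages, was steady at 40.8, 38.6 and 39.3 FPKM in Tumor-macrophage and averaged 0.396 FPKM in Ctrl-AM.

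Another 11 genes encode receptors and molecules of uptake and adhesion. Vcam1, the adhesion molecule that binds the integrin α4β1, had the highest level of all genes on in Tumor-macrophage, with 205, 182 and 206 FPKM against 0.459, 1.07 and 0.895 FPKM in Ctrl-AM, 244-fold apart in the means. Fcrls, an Fc-receptor-like scavenger protein best known from microglia, was at 119, 93.1 and 178 against 0.274, 1.12 and 1.16 FPKM and was highest in Tumor-macrophage sample 3. Cx3cr1, the receptor of fractalkine, was at 86.0, 46.8 and 73.6 against 0.436, 0.302 and 0.523 FPKM. Tmem119, also used as a marker of microglia, was at 50.3, 39.9 and 52.3 against 0.174, 0.114 and 0.611 FPKM.

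Stab1 and Folr2 are markers of tissue-resident interstitial macrophages. Stab1, a scavenger receptor that clears modified proteins and dying cells, was even across Tumor-macrophage at 55.2, 52.4 and 51.4 FPKM and all but absent from Ctrl-AM at 0.136, 0.0183 and 0.0916 FPKM, 647-fold apart in the means. Folr2, a folate receptor, was at 37.2, 95.4 and 54.7 FPKM in Tumor-macrophage, highest in sample 2, and 1.12, 0.327 and 0.985 FPKM in Ctrl-AM. An unlisted gene model, Gm10602, holds 51.3% of its read-length windows on the opposite strand. Gas6, the ligand that links dying cells to the receptors MerTK and Axl, was at 43.8, 47.1 and 46.7 against 0.921, 0.987 and 0.389 FPKM. Its receptors were not on/off: Mertk and Axl averaged 40.6 and 136 FPKM in Tumor-macrophage and 95.2 and 282 FPKM in Ctrl-AM, lower in Tumor-macrophage (adjusted p = 7.48e-05 and 5.14e-05, limma).

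Dnase1l3, a secreted nuclease that degrades DNA of dying cells, was at 25.9, 27.8 and 29.0 FPKM in Tumor-macrophage and 0, 0.0409 and 0.102 FPKM in Ctrl-AM, 578-fold apart. Cadm1, a cell adhesion molecule, gave nearly equal Tumor-macrophage values of 34.9, 34.4 and 34.8 FPKM and averaged 0.347 FPKM in Ctrl-AM. Clec10a, a galactose-binding lectin, averaged 20.6 ± 2.26 FPKM (SD, n = 3), just over the limit. Gpr132, a G-protein-coupled receptor of immune cells, was at 22.7, 18.4 and 21.8 against 1.02, 0.799 and 1.12 FPKM.

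Proteases, their inhibitors and matrix proteins made up 10 genes. Mmp14, a membrane-bound collagenase that also activates pro-MMP2, was at 172, 162 and 173 FPKM in Tumor-macrophage and 0.204, 0.866 and 0.627 FPKM in Ctrl-AM, 298-fold apart. Its substrate Mmp2, a gelatinase, was at 38.7, 22.0 and 32.2 against 0.287, 1.36 and 0.630 FPKM. Mmp13, an interstitial collagenase, was at 12.9, 28.7 and 19.1 against 0.231, 0.0578 and 0.0868 FPKM. All 3 enzymes were thus on in the same population, and Mmp13 ran from under to over 20 FPKM between its samples.

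Olfml3, a secreted glycoprotein of the olfactomedin family, had the second highest mean of the genes on in Tumor-macrophage, with 211, 146 and 188 FPKM against 0.746, 0.980 and 0.327 FPKM. Hpse, the heparanase that cuts heparan sulfate of the matrix, was at 50.4, 37.7 and 43.1 against 0.368, 0.670 and 0.199 FPKM, and Htra1, a secreted serine protease, at 22.1, 28.6 and 16.4 against 0.0889, 0.0390 and 0 FPKM. The peptidases Cpq and Anpep (aminopeptidase N, CD13) averaged 92.3 and 31.9 FPKM in Tumor-macrophage and 0.644 and 0.577 FPKM in Ctrl-AM. Serpinb8, an intracellular serpin, was at 22.4, 17.2 and 20.9 FPKM, and Ctla2b, a cathepsin inhibitor homologue, at 57.8, 86.2 and 81.5 FPKM, with 68.5% of the windows of Ctla2b also found in Ctla2a and in overlapping gene models. Markers of fibroblasts and smooth muscle summed to 11.8 to 19 FPKM over 9 genes in Tumor-macrophage, 6.45 to 9.14 FPKM in Ctrl-AM and 16.2 to 90.2 FPKM in Tumor-AM. The part of such cells in the values of these genes was not tested.

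The group of growth factors and neuropeptides on in Tumor-macrophage held 4 genes. Vegfa, the main growth factor of blood vessels, was at 72.4, 44.8 and 82.1 FPKM in Tumor-macrophage and 0.326, 1.26 and 0.439 FPKM in Ctrl-AM. Pdgfa, a growth factor of fibroblasts, was at 36.1, 43.6 and 36.6 against 0.301, 0.0881 and 0.352 FPKM. Gdf3, a ligand of the TGF-β superfamily, was at 31.0, 19.7 and 42.3 against 0.171, 0.225 and 0.263 FPKM. Npy, the precursor of neuropeptide Y, was at 17.6, 15.6 and 27.8 FPKM in Tumor-macrophage and listed at 0 in all 3 Ctrl-AM samples.

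Etv5, a transcription factor of the ETS family, was at 21.2, 27.9 and 22.1 FPKM in Tumor-macrophage and 0.631, 1.01 and 0.770 FPKM in Ctrl-AM, with 20.8% of its windows shared with Gm4798. Maf, which encodes c-Maf, stayed under the level limit at 5.46, 6.16 and 6.62 FPKM in Tumor-macrophage and was at 0.0237, 0.0208 and 0.0831 FPKM in Ctrl-AM, higher in Tumor-macrophage with a log2 difference of 2.76 (SE 0.13, adjusted p = 2.22e-07, limma). Spi1, which encodes the general myeloid factor PU.1, averaged 239.6 and 306 FPKM, a log2 difference of -0.35 (adjusted p = 0.00266, limma).

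Of the remaining genes, Kcnn4, a calcium-activated potassium channel, was at 78.9, 94.1 and 68.0 against 0.233, 1.55 and 0.450 FPKM. Marcks, Fyb, Pstpip1, Pdlim4 and Cpne2 serve the actin cytoskeleton, adhesion or membrane signalling, and their Tumor-macrophage means lay between 27.1 and 66.9 FPKM. Abcc3, an export pump of organic anions, averaged 33.0 ± 5.61 FPKM (SD, n = 3). For some genes the reads may belong elsewhere. Gm5424 is a processed pseudogene that shares 65.3% of its windows with Ass1, which encodes argininosuccinate synthase, itself at 9.52 against 0.941 FPKM. 1700071M16Rik overlaps 319 exon bases of Pla2g7 on the opposite strand, itself at 649.5 against 5.72 FPKM. Zmynd15 overlaps 552 exon bases of Cxcl16 on the opposite strand, at 456 against 6.88 FPKM. Stab1 shares only 112 bases of its transcript of 7999 bases with Nt5dc2, at 38.0 FPKM in Tumor-macrophage. Susd3, a sushi-domain surface protein, and Nxpe5 averaged 53.6 ± 4.39 and 21.4 ± 4.76 FPKM (SD, n = 3). Without a stated strand setting, reads from the bases that overlapping genes share cannot be told apart.

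The region before the transcription start was read for the on/off genes that the promoter table holds, 37 of the genes on in Tumor-macrophage and 26 of those on in Ctrl-AM. The 250 bases before each start were searched on both strands for the core of the interferon-stimulated response element (ISRE: GAAA, any 2 bases, GAAA), the site bound by interferon-activated factors. It occurred in 4 of 37 genes on in Tumor-macrophage (10.8%), in 0 of 26 on in Ctrl-AM and in 3.56% of 8332 genes tested. Among the interferon targets named above, Cxcl9, Oasl2 and Pyhin1 had no match, and Iigp1, Usp18 and Gbp4 had no window. A match is a description of the letters, not evidence of a bound site. The 4 genes with a match were Saa3 and Slamf8, of the interferon and inflammation group, and Vegfa and Mmp13, of other groups. The windows of 3 of them, in which no annotated exon lies, are shown 5′ to 3′ in the direction of the gene from RefSeq (GRCm38.p6), with the match in capitals. It begins 15 bases before the start in Slamf8, 142 in Vegfa and 146 in Mmp13.
Slamf8, chr1:172590569-172590818, minus strand: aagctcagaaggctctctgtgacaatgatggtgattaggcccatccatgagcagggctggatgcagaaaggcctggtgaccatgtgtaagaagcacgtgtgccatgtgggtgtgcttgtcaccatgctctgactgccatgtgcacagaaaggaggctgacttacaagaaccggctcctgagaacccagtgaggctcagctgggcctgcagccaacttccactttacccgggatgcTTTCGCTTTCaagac
Vegfa, chr17:46032378-46032627, minus strand: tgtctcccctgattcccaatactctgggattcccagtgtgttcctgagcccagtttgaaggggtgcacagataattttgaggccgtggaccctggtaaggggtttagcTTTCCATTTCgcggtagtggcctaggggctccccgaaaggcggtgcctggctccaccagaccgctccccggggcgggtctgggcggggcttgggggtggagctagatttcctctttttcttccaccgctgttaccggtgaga
Mmp13, chr9:7272264-7272513, plus strand: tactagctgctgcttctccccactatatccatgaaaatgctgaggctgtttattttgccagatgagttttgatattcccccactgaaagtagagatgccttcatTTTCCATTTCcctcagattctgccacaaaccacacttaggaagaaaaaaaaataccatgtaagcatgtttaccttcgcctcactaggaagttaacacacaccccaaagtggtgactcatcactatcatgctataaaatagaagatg

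In all 3 windows the capitals read the ISRE core on the strand opposite to the gene. The AP-1 site (TGANTCA, both strands) was found in 6 of 37 genes on in Tumor-macrophage (16.2%), 4 of 26 on in Ctrl-AM (15.4%), 5.41% of the genes tested and 7.82% of all 27025 genes of the table. The TATA motif (TATAAA) was found in 16.2% and 7.69% of the 2 sets in 7.45% of the genes tested and in 14.3% of the table. The PU.1 site GAGGAAGT was in 0 and 2 genes of the 2 sets, beside 3.41% of the genes tested and 2.79% of the table. The E-box CACGTG was in 2 and 1 genes, beside 10.5% and 6.86%, and the nuclear receptor half-site AGGTCA was in 4 and 4 genes, beside 12.9% and 15.8%. The observed over expected ratio of CpG had a median of 0.311 in the windows of genes on in Tumor-macrophage and 0.402 in those on in Ctrl-AM, against 0.773 over the genes tested and 0.403 over the table. Both sets were thus at or below the median of the table and below that of the genes tested. Matches of different motifs may overlap.

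Turning to Ctrl-AM, 35 of its 39 on/off genes had transcripts of at least 200 bases, and their leading members were an RNase, a fatty acid carrier and keratins. Ear1, an eosinophil-associated ribonuclease that AMs also express, was at 1532, 1745 and 1629.7 FPKM in Ctrl-AM and 0.711, 0 and 2.06 FPKM in Tumor-macrophage, with 39.3% of its windows shared with Ear2, Ear10 and a pseudogene. Fabp1, the liver-type fatty acid-binding protein, was at 1019, 934 and 1084 FPKM in Ctrl-AM and 1.58, 0.616 and 0.282 FPKM in Tumor-macrophage. Each had 1 Tumor-macrophage sample above 1 FPKM, and the means lay 1769-fold and 1225-fold apart.

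Lipid handling accounted for 6 genes with means of 22.5 to 1012.5 FPKM. Cidec, a protein that fuses and enlarges lipid droplets, was at 403, 368 and 404 FPKM in Ctrl-AM and 0, 0 and 0.590 FPKM in Tumor-macrophage. Acaa1b, a thiolase of peroxisomal fatty acid oxidation, was at 169, 164 and 161 against 0.184, 0 and 0 FPKM, with 37.8% of its windows shared with other genes. Ffar4, a receptor of long-chain fatty acids also called GPR120, was at 111, 105 and 108 against 0.758, 0.517 and 0.879 FPKM. Acot1, an acyl-CoA thioesterase, and Lipf, an acid-stable lipase known from the stomach, averaged 25.1 ± 4.14 and 22.5 ± 1.11 FPKM (SD, n = 3) in Ctrl-AM and 0.570 and 0.0255 FPKM in Tumor-macrophage. Cidec and Acaa1b were listed at 0 in 2 of 3 Tumor-macrophage samples each, and Lipf likewise.

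Other genes of lipid handling were not on/off but lay mostly on the same side. Of 17 such genes tested in the fixed list, 10 were lower and 4 higher in Tumor-macrophage. Over all genes tested, 26.9% were lower and 27.9% higher. Lpl, lipoprotein lipase, averaged 713 FPKM in Ctrl-AM and 74.9 FPKM in Tumor-macrophage (log2 difference -3.26, SE 0.14, adjusted p = 1.64e-07, limma). Angptl4, an inhibitor of that lipase, averaged 214 against 8.62 FPKM (adjusted p = 1.67e-09, limma). Fabp5, Abca1, Fads1 and Fads2 went the other way: Fabp5 averaged 372 FPKM in Ctrl-AM and 997 FPKM in Tumor-macrophage, and Fads1, a fatty acid desaturase, 2.41 and 36.2 FPKM.

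Another 8 genes on in Ctrl-AM were grouped as epithelial-type, most of them known from epithelia. Krt19, a keratin of simple epithelia, was at 861, 794 and 769.5 FPKM in Ctrl-AM and 0.693, 0.150 and 0.756 FPKM in Tumor-macrophage. Krt79, a keratin of skin glands, was at 354, 312 and 338 against 0.143, 0.185 and 0.254 FPKM. Perp, a p53 target that builds desmosomes, was at 150.2, 142 and 145 against 0.425, 0.155 and 0.331 FPKM. Epcam, the epithelial cell adhesion molecule, was at 43.8, 53.9 and 67.8 against 0.436, 0 and 0.951 FPKM. The Ctrl-AM samples were close to each other for the first 3 of these and differed more for Epcam.

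Trim29, Wwtr1 (the Hippo co-activator TAZ), Mcam (an adhesion molecule also known from vessels and melanoma) and Inadl (now Patj, a scaffold of tight junctions) completed the group with Ctrl-AM means of 22.7 to 27.2 FPKM. Cdh1, E-cadherin, missed the off limit with 0.876, 1.58 and 1.33 FPKM in Tumor-macrophage and 19.1, 22.6 and 22.6 FPKM in Ctrl-AM. Other keratins of lung epithelium were low, and Krt7, Krt8 and Krt18 averaged 0.116, 0.208 and 0.140 FPKM in Ctrl-AM, beside 808 FPKM for Krt19. The 10 markers of lung epithelium summed to 60.5 to 209.5 FPKM in Ctrl-AM and 42.1 to 90.6 FPKM in Tumor-macrophage, mostly Sftpc and Scgb1a1 (means 46.4 and 58.6 FPKM in Ctrl-AM), and Foxj1 was at 0 in all 6 samples. The part of epithelial cells in the genes of this group was not tested.

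Secreted proteins and peptides gave 6 genes. Gal, the precursor of the neuropeptide galanin, was at 244, 212 and 222 FPKM in Ctrl-AM and 2.19, 0 and 0 FPKM in Tumor-macrophage. Spag11b, a defensin-like peptide known from the epididymis, was at 99.8, 77.9 and 96.0 against 0, 0.201 and 0 FPKM. Wfdc10, a small whey-acidic-protein domain gene, was at 98.6, 81.6 and 83.1 FPKM in Ctrl-AM and listed at 0 in all 3 Tumor-macrophage samples. Ccdc80, a secreted matrix-binding protein, was at 25.5, 26.4 and 26.3 against 0.470, 0.152 and 0.396 FPKM.

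A ligand and its receptor fell on opposite sides. Cx3cl1, fractalkine, was at 20.5, 20.5 and 23.3 FPKM in Ctrl-AM and 0.918, 0.358 and 1.15 FPKM in Tumor-macrophage, while its receptor Cx3cr1 showed the reverse, as given above. The 2 neuropeptide genes also split, with Gal on in Ctrl-AM and Npy on in Tumor-macrophage. Lepr, the leptin receptor, was on in Ctrl-AM at 30.7, 46.2 and 40.3 FPKM and at 0.522, 0.558 and 0.751 FPKM in Tumor-macrophage. The plot of signalling molecules and receptors shows these genes in all 9 samples.

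**Figure D3:**
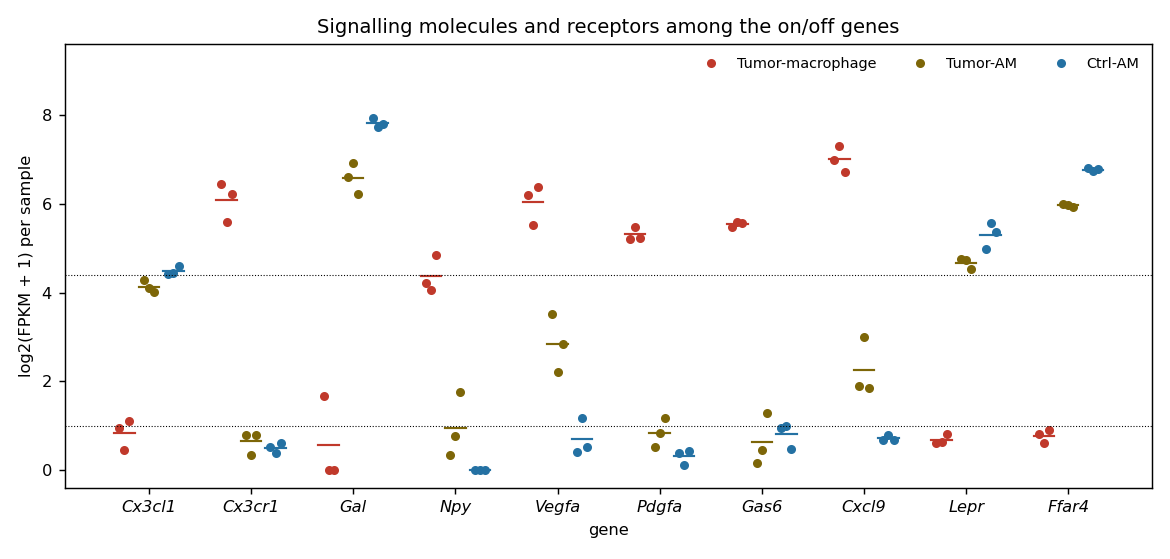
Level of 10 on/off genes for signalling molecules and receptors (x axis), as log2(FPKM + 1) per sample (points) and the mean of those log2 values (lines) in the 3 groups, with dotted lines at 1 and 20 FPKM. Cx3cl1, Gal, Lepr and Ffar4 are high in Ctrl-AM and low in Tumor-macrophage, and the other 6 genes show the opposite order.

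Transporters and channels gave 6 genes on in Ctrl-AM. Mfsd7c (now Flvcr2), a member of a family of small-molecule carriers, was the highest, with 76.8, 80.0 and 81.7 FPKM against 0.250, 0.136 and 0.819 FPKM. Slc6a4, the serotonin transporter, was at 32.0, 36.2 and 36.9 against 0.354, 0 and 0.0631 FPKM. Slc39a2, a zinc importer, was at 36.3, 31.6 and 29.0 against 0.465, 0.206 and 0.640 FPKM. Cyb561, a membrane cytochrome that recycles ascorbate, Kcne3, a potassium channel subunit, and Slc52a3, a riboflavin carrier, averaged 31.2 ± 0.231, 24.5 ± 3.05 and 23.5 ± 2.57 FPKM (SD, n = 3) in Ctrl-AM.

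Among the last protein-coding genes, Rufy4, an adaptor of autophagy and lysosome traffic, was at 34.7, 36.1 and 32.3 FPKM in Ctrl-AM and 0, 0 and 0.0763 FPKM in Tumor-macrophage. Rab44, a large GTPase of secretory granules, was at 41.8, 44.5 and 45.2 against 0.691, 0.449 and 0.493 FPKM, and Cpne5, a calcium-dependent phospholipid-binding copine, at 33.2, 33.5 and 34.2 against 0.0864, 0.0210 and 0.0193 FPKM. Fam89a averaged 48.7 ± 1.63 FPKM (SD, n = 3), and Mtmr7, a phosphoinositide phosphatase, and Cmbl, a hydrolase, stood just over the limit at 20.5 and 20.1 FPKM. Gm13546, an antisense RNA, averaged 48.9 ± 9.29 FPKM.

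The remaining 4 genes on in Ctrl-AM are short RNAs that rest on single reads. Mir7091 was at 1863, 1633 and 3267 FPKM in Ctrl-AM and 0 in Tumor-macrophage, the highest mean among the on/off genes. After scaling by depth, its 3 Ctrl-AM values were 1, 1 and 2 times one smallest step, within 0.00077 of a whole number, which is what 1, 1 and 2 reads on a transcript of 79 bases would give. Mir3074-2, Mir6357 and Snora30 likewise came to 1 or 2 steps in each Ctrl-AM sample and 0 in Tumor-macrophage. These 4 genes carry no more weight than those few reads, and Tumor-AM came to 0 to 2 steps. A further 24 genes on in Tumor-macrophage and 19 on in Ctrl-AM met the level limits but were left out because fewer than 3 samples reached 1 FPKM. All of those 24 and 19 genes had transcripts under 200 bases.

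Some on/off genes lie close together in the genome (mm10 coordinates). Rab44 and Cpne5, both on in Ctrl-AM, are 6.58 kb apart on chromosome 17, and Serpina3f and Serpina3g, both on in Tumor-macrophage, are 15.1 kb apart on chromosome 12. Trim29 and Mcam (798.4 kb apart on chromosome 9) were both on in Ctrl-AM, and Slamf7 and Slamf8 (928.7 kb, chromosome 1) were both on in Tumor-macrophage. Neighbours in opposite states occurred too: Cpne2 and Cx3cl1 are 201.5 kb apart on chromosome 8, and the first is on in Tumor-macrophage and the second in Ctrl-AM. The same holds for Wfdc10 and Cd40 (398.3 kb, chromosome 2) and for Acaa1b and Cx3cr1 (744.5 kb, chromosome 9). These pairs were picked out after their values were seen.

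The limits cut through a continuous range. Just inside the limit of 20 FPKM stood Serpinb8 and Mmp13 (both 20.2 FPKM) and Npy (20.3), and just outside Rsad2 (19.8), an antiviral interferon target, Slc26a11 (19.7) and Tlr1 (19.6), a receptor of bacterial lipoproteins. For Ctrl-AM the corresponding genes were Cmbl (20.1), Mtmr7 (20.5) and Cx3cl1 (21.4) inside, and Ucp3 and Fam189a2 (both 17.9) and Vstm2a (17.4) outside. On the limit of 1 FPKM, Cd40 (0.985 FPKM in Ctrl-AM), Gpr132 (0.98) and Marcks (0.965) stood just inside, and Ldhb (1), F13a1 (1.07) and C3ar1 (1.08) just outside. In Tumor-macrophage, Ear1 (0.925), Mtmr7 (0.877) and Fabp1 (0.827) stood inside and Kazald1 (1), Marveld2 (1.03) and Slc9a4 (1.07) outside.

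The 3 Tumor-AM samples, which the rule did not use, placed the 2 sets of genes differently. None of the 56 genes on in Tumor-macrophage reached a mean of 20 FPKM in Tumor-AM, 41 had a mean between 1 and 20 FPKM and 15 were under 1 FPKM, with a highest mean of 11.3 FPKM (Mmp14). The share with a mean of at least 1 FPKM was 73.2%, beside 32.4% of all 645 genes tested with a Ctrl-AM mean under 1 FPKM. In relation to the Tumor-macrophage mean, the Tumor-AM level had a median of 3.7% and ran from 0.39% to 18.4%. Of the 39 genes on in Ctrl-AM, 25 (64.1%) had a mean of at least 20 FPKM in Tumor-AM, beside 96% of all 3388 genes tested with such a mean in Ctrl-AM, and none was under 9.42 FPKM. Their Tumor-AM level had a median of 69.5% of the Ctrl-AM mean and ran from 17.9% to 154.3%. The 4 short RNAs, which rest on single reads, count among the 25 and enter this median. Both ratios to the mean of the on group share samples with the choice of genes and are descriptions. The shares of 73.2% and 64.1% are descriptions too. The 645 and 3388 genes beside them were not held to the rule's limits in Tumor-macrophage and are no matched background.

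**Figure D4:**
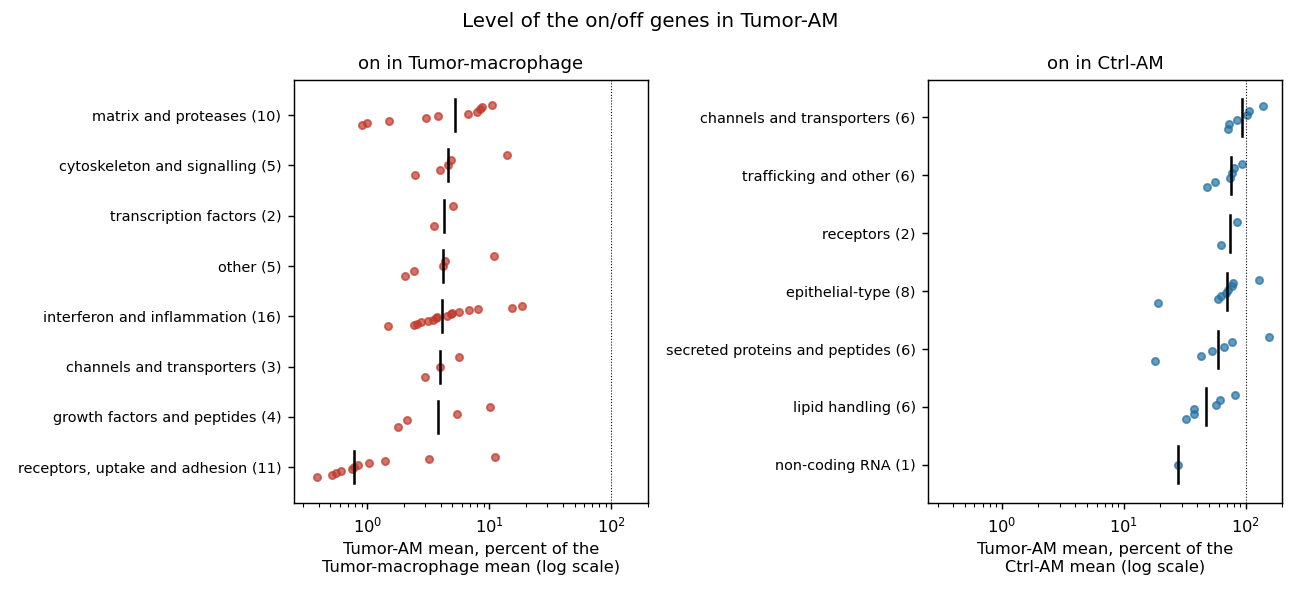
Mean of the 3 Tumor-AM samples as a percent of the mean of the group in which the gene was on (x axis, log scale), for each on/off gene (points) by role, without the 4 short RNAs, with the median of each role as a vertical line and the number of genes in brackets. Genes on in Tumor-macrophage lie between 0.39% and 18.4%, and those on in Ctrl-AM between 17.9% and 154.3%, on both sides of the dotted line at 100%.

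The roles were not alike in Tumor-AM. Of the 11 receptor, uptake and adhesion genes on in Tumor-macrophage, 8 were under 1 FPKM in Tumor-AM, with a median of 0.785% of the Tumor-macrophage mean. Vcam1, just over 1 FPKM on average, was at 1.08, 1.23 and 0.732 FPKM, Stab1 at 0.167, 0.338 and 0.375 FPKM, Cx3cr1 at 0.732, 0.270 and 0.741 FPKM and Cadm1 at 0.250, 0.135 and 0.252 FPKM. The Tumor-AM range of Vcam1, Cx3cr1 and Cadm1 overlapped that of Ctrl-AM, and that of Stab1 lay just above it. Of the 16 interferon and inflammation genes, 15 had a mean of 1 FPKM or more, with a median of 4.11%, with the highest shares for Oasl2 at 5.79, 8.77 and 3.37 FPKM and Pyhin1 at 3.63, 3.76 and 2.84 FPKM. Mmp14 was at 12.4, 5.64 and 15.7 FPKM, Vegfa at 10.4, 3.63 and 6.13 FPKM and Gm5424 at 9.66, 8.44 and 10.6 FPKM. In the last 5 genes all Tumor-AM values lay above all Ctrl-AM values and below all Tumor-macrophage values.

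The C1q genes, which are strong in Tumor-macrophage and are no on/off genes, are given for comparison. C1qb was at 7051, 6789 and 6806 FPKM in Tumor-macrophage, 9.06, 13.4 and 10.9 FPKM in Ctrl-AM and 37.5, 35.6 and 69.9 FPKM in Tumor-AM, where its mean was 0.692% of that in Tumor-macrophage. For C1qa and C1qc this share was 0.451% and 0.457%. How far TAMs in the sort of Tumor-AM contributed to any of these values was not tested.

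Among the genes on in Ctrl-AM, those of lipid handling had a median of 47.2% of the Ctrl-AM mean in Tumor-AM and transporters one of 94%. Fabp1 was at 347, 371 and 260.4 FPKM in Tumor-AM, Acaa1b at 58.9, 72.7 and 53.9 FPKM and Acot1 at 8.45, 12.5 and 7.35 FPKM, all below their Ctrl-AM samples. Spag11b at 18.1, 21.1 and 9.92 FPKM and Epcam at 18.9, 4.52 and 8.27 FPKM kept the smallest shares, 17.9% and 19.1%. Ccdc80 at 39.7, 39.0 and 41.8 FPKM and Mcam at 29.3, 36.4 and 40.0 FPKM had higher means than in Ctrl-AM, and for Ccdc80 the samples of the 2 groups did not overlap. The level of Mfsd7c was almost the same in both AM groups, with 81.3, 81.2 and 82.0 FPKM in Tumor-AM.

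Outside the on/off genes, the 10 largest increases in Tumor-macrophage were those of the chemokines Ccl8, Ccl12 and Ccl7, the complement genes C1qa, C1qb and C1qc, Aif1 (the calcium-binding protein IBA1), Apoe (a carrier of cholesterol), Slc11a1 (the phagosomal metal transporter NRAMP1) and Pla2g7 (a phospholipase that inactivates platelet-activating factor). Ccl12, a monocyte-attracting chemokine, was at 185, 416 and 322 FPKM in Tumor-macrophage and 0.496, 1.52 and 1.74 FPKM in Ctrl-AM (log2 difference 7.07, SE 0.31, adjusted p = 1.72e-07, limma). Slc11a1 was at 463, 416 and 447 against 2.83, 3.68 and 2.76 FPKM (log2 difference 6.76, SE 0.10, adjusted p = 6.15e-10, limma). Apoe was at 33189.8, 20709 and 29660.5 against 107, 184 and 86.4 FPKM. The log2 differences of the 10 genes ran from 6.61 to 10.64.

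The 10 largest decreases included Ear2 and Ear3, relatives of Ear1, with means of 3849 and 597 FPKM in Ctrl-AM and 20.7 and 3.25 FPKM in Tumor-macrophage. Plet1, a surface protein of epithelial progenitors, was at 1232, 1332 and 1298 FPKM in Ctrl-AM and 9.32, 3.74 and 8.80 FPKM in Tumor-macrophage (log2 difference -7.36, SE 0.26, adjusted p = 4.37e-08, limma). Chil3, a chitinase-like lectin, averaged 25739 against 236 FPKM, Car4, a membrane-bound carbonic anhydrase, 569 against 5.08 FPKM, and Wfdc21 739 against 8.98 FPKM. Phgdh, the first enzyme of serine synthesis, was at 208, 181 and 171 against 4.05, 1.10 and 3.66 FPKM (adjusted p = 4.36e-07, limma), and Serpinb1a, an inhibitor of neutrophil proteases, at 198, 199 and 195 against 3.05, 2.35 and 3.65 FPKM (adjusted p = 2.96e-09, limma). Kazald1 completed this set together with Mir27a, which again came to 2 or 3 steps of a single read in Ctrl-AM and 0 or 1 in Tumor-macrophage (adjusted p = 0.0168, limma).

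The fixed gene lists place the on/off genes among their relatives, and the share of each list past the threshold is to be read against 27.9% higher and 26.9% lower of all genes, with a median log2 difference of -0.0074. On/off members are left out of the following counts. All 18 interferon-stimulated genes were higher in Tumor-macrophage, among them Irf7, a master regulator of type I interferon (95.3 against 4.59 FPKM, adjusted p = 3.28e-07, limma), and Gbp2 (204 against 9.46 FPKM, adjusted p = 3.48e-07). All 10 MHC class II genes were higher: H2-Ab1 was at 18707, 14175 and 16872 FPKM in Tumor-macrophage and 525, 773 and 784 FPKM in Ctrl-AM, and Ciita, the master regulator of the class, was also higher (adjusted p = 2.31e-05, limma). Of 25 genes of monocytes and interstitial macrophages, 24 were higher and 1, Lyve1, did not pass the threshold (adjusted p = 0.066, limma). In the AM identity list, 23 of 25 genes were lower, and Fabp5 and Il1rn were higher.

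Most chemokines were higher in Tumor-macrophage. Of 11 CC chemokines, 8 were higher and only Ccl6 was lower (1234 against 6881 FPKM, adjusted p = 6.38e-06, limma), and Ccl17 and Ccl22 did not pass. Of 8 CXC chemokines, 7 were higher and Cxcl3 did not pass. Of 9 chemokine receptors, 6 were higher and Ccr1 and Cxcr2 lower, and Cxcr6 did not pass. Of 17 complement genes, 13 were higher and 2 lower, and C3ar1, the receptor of C3a, averaged 187 against 1.08 FPKM.

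Among 18 genes of matrix and proteolysis, 12 were higher and 5 lower. Thbs1, thrombospondin 1, was at 194, 145 and 199 FPKM in Tumor-macrophage and 2.60, 2.77 and 3.62 FPKM in Ctrl-AM (adjusted p = 9.79e-09, limma), whereas Ctsk, the collagen-degrading cathepsin K, averaged 48.1 against 398 FPKM and was lower. Of 20 growth factors and cytokines, 11 were higher and 5 lower, with Il18 among the lower (30.2 against 604 FPKM) and Il1b among the higher (477 against 70.7 FPKM). In the list of arginine and immune checkpoint genes, 10 of 13 were higher and 2 lower. Arg1, arginase 1, was at 40.8, 325 and 119.7 FPKM in Tumor-macrophage, with a wide spread, and under 2 FPKM in each Ctrl-AM sample (adjusted p = 5.38e-05, limma). Both directions were thus present in these lists.

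Scavenger receptors and lectins split evenly, with 12 of 25 higher and 13 lower: Olr1, the oxidized-LDL receptor, averaged 5.86 against 88.7 FPKM. Integrins and adhesion molecules gave 12 of 18 higher and 6 lower, and lineage transcription factors 15 of 27 higher and 11 lower. Tcf7l2, a Wnt effector, averaged 10.2 against 68.1 FPKM. Fc receptors (5 of 6 higher, 1 lower) and the Ms4a family (7 of 8 higher, 1 lower) had single exceptions, Fcgrt and Ms4a8a. The epithelial-type list had 6 of 7 lower and the Ear ribonuclease family 4 of 6 lower and 1 higher. Immediate-early genes, which tissue digestion also raises, gave 11 of 17 higher and 2 lower, and cell cycle genes 10 of 20 higher.

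**Figure D5:**
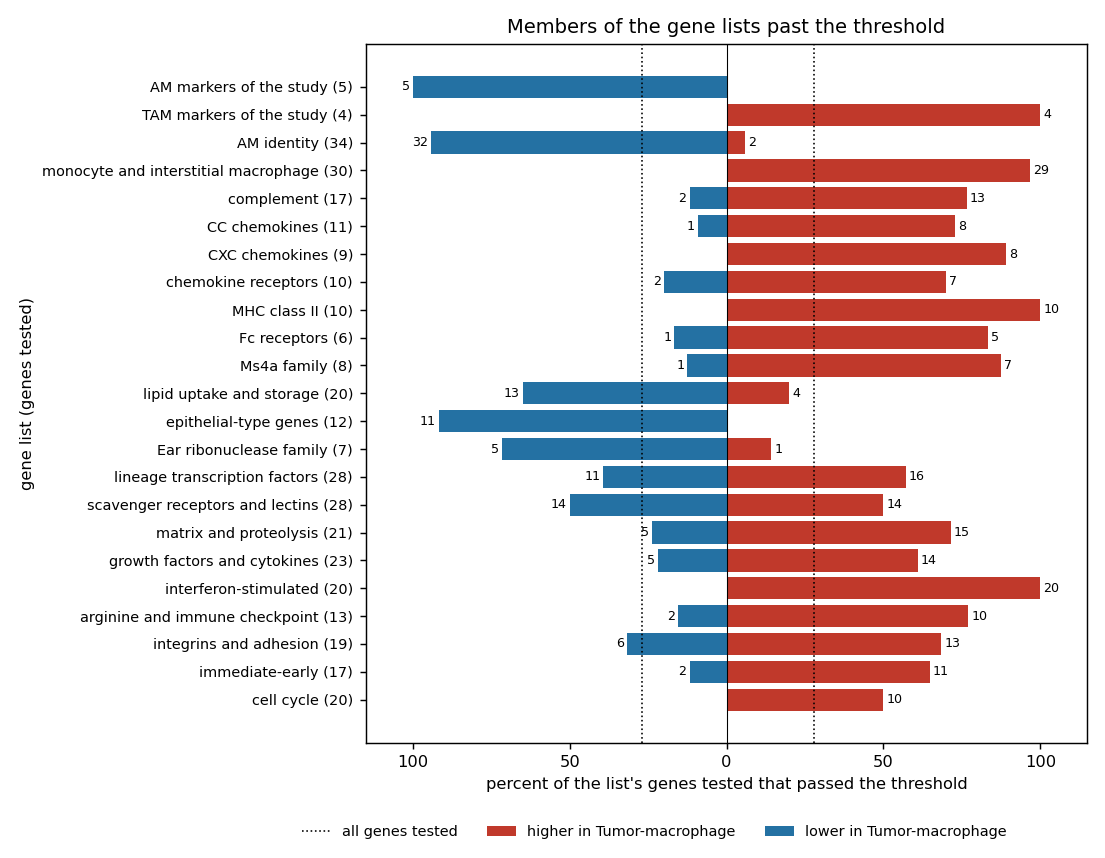
Percent of the genes tested in each fixed list that passed the threshold, to the right when higher and to the left when lower in Tumor-macrophage, with the number of genes at each bar and on/off members included. Dotted lines mark the shares over all genes, 27.9% and 26.9%, and the lists of interferon-stimulated and MHC class II genes reach 100% on the right.

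Markers of other cells were low in both groups but not equal. Over 10 T and NK cell markers the sums were 34.6 to 65.1 FPKM in Tumor-macrophage and 10.7 to 14.5 FPKM in Ctrl-AM, over 7 B and plasma cell markers 32.9 to 88.3 and 14.1 to 17.7 FPKM, and over 8 dendritic cell markers 26.6 to 59.2 and 15.9 to 18.7 FPKM. Neutrophil markers summed to 95.8 to 145 FPKM in Tumor-macrophage and 146.5 to 174.7 FPKM in Ctrl-AM, with Camp and Elane at 0 in all 6 samples. Endothelial markers summed to 7.06 to 15.9 and 11.9 to 15.9 FPKM, markers of eosinophils, mast cells and basophils to 2.84 to 11.2 and 0.064 to 1.14 FPKM, and those of erythroid cells and platelets to 3.3 to 6.14 and 0.902 to 7.11 FPKM. Cd79a, a B cell marker, averaged 17.1 against 7.29 FPKM and the T cell gene Cd3g 4.83 against 1.46 FPKM. The part of such cells in the on/off genes at around 20 FPKM was not tested.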

How the data were processed

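The samples came from FACS-sorted lung macrophages, 3 per group, which the study gives as 3 mice per population. Total RNA was turned into full-length cDNA (SMART-Seq HT, poly(A)-primed) and Nextera libraries, read as single 75-base reads. The authors mapped the reads to mm10 with TopHat2 2.1.1 and Bowtie2 and deposited 1 table of FPKM per sample from Cuffdiff 2.2.1, with 24346 gene symbols. The annotation, strand setting and any filter are not given in the sources used here. Whether the values were also normalised between samples is not given either, so other scalings were tried. For transcripts near the read length, 1 read gives a large FPKM. Depth was estimated from the steps between low values, and 63.5% of 3305 ratios of low values lay within 0.05 of a whole number.

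Genes with at least 1 FPKM in 3 of the 6 samples were tested on log2(FPKM + 1) by limma 3.58.1 with an intensity trend in R 4.3.3 (two-sided, Benjamini-Hochberg over 10495 genes, threshold 0.05), after a test on simulated data. The offset of 1 understates the change of low genes. On/off genes, roles and lists were chosen with earlier results of these data known. The genes named were the study's markers, the 15 highest on/off genes of each direction, the 10 largest other increases and decreases (mean of at least 20 FPKM, groups apart), on/off members of lists, list members as examples and the genes at the limits. Other on/off genes, genes that share their reads and general macrophage genes were named after their values were seen, and roles were assigned then too. Promoters and coordinates came from RefSeq and GENCODE vM21 (GRCm38, the same build as mm10), to which 98.5% of the symbols matched, and shared windows were 75-base stretches of a gene's transcripts also found in other genes. Alternatives were other offsets, filters, scalings, variance priors, sample sets and limits. In the fits without 1 sample, the genes tested stayed those of the 6 samples. Values of a few single genes are not reported here.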

Additional observations from a re-analysis of the deposited data

How the results depend on the processing

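Depth limits the off state: by the estimated depth, 1 FPKM comes to 10.2 to 12.9 reads for each kb of transcript, so a low FPKM of a short transcript rests on few reads. The number of genes called stayed within 1.5 times of 5753 under all alternatives except that 2143 were also at least 2-fold different (1236 higher, 907 lower), and TPM gave 4430 lower and 2172 higher. Quantile normalization gave 3350 lower and 2596 higher. The on/off genes numbered 56 and 39 as described, 54 and 45 by TPM, 125 and 63 with an on limit of 10 FPKM, 25 and 25 with an off limit of 0.5 FPKM, and 27 and 32 with the limits met in every sample. Without 1 sample in turn they numbered 53 to 60 and 37 to 43, and the calls 4965 to 5665. Without the filter on low values there were 80 and 58, and without transcripts under 200 bases 56 and 35, which were 2 alternatives chosen after seeing the data. The 2 groups came from different mice, so the replicate numbers do not pair mice. Deviations from the group means correlated at 0.0262, 0.0315 and 0.0767 between same-numbered samples, and not every sample correlated best with its own number. With so few samples, these values cannot tell whether same-numbered samples were handled together. A fit with the replicate block called 5475 genes, 2792 higher and 2683 lower, of which 5367 were also called without it. TPM gave 4 complement genes and 8 growth factors and cytokines as lower instead of 2 and 5, and a filter of 5 FPKM left 1 chemokine receptor lower. Among 290 named genes outside the on/off set, no change reversed its direction past the threshold, and 18 lost it under at least 1 alternative. The log2 differences of all 95 on/off genes kept their sign, which follows from the rule that chose them, with an offset of 0.1 moving each. The cause of these changes was not tested.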
